A study of Mus musculus with 6 samples.

Results

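The genes described here are 10 cytokine genes that B cells can transcribe: *Il6*, *Il10*, *Il12a*, *Il12b*, *Il23a*, *Ebi3*, *Il27*, *Il1b*, *Il16* and *Tgfb1*. They were chosen as a list of gene symbols, and all 10 were found among the 23420 genes of the RNA-seq values. The samples were B cells purified with beads from the spleens of BALB/c wild-type mice and either stimulated for 4 hours with the TLR9 agonist CpG ODN 1826 at 10 µg/ml (CpG-stimulated) or left unstimulated. Each group held 3 samples, numbered 1 to 3, from mice aged 7 to 11 weeks, with 10 M cells per culture. The labels do not say that a number is 1 mouse, or whether the groups share mice. In both groups the labels gave replicates 1 and 2 as female and replicate 3 as male, and no sample carried an engineered allele. Cells were cultured in bulk and as a mixture of B cell subsets, so a change in a transcript may come from few or many of the cells, and fewer cells of a type cannot be told apart from less RNA per cell.

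B cells present antigen and make antibody, and they also signal to T cells, myeloid cells and each other through cytokines. IL-6, encoded by *Il6*, supports plasma cells and T follicular helper cells, and IL-1β, encoded by *Il1b*, is an inflammatory cytokine that is made as an inactive precursor. IL-10, encoded by *Il10*, restrains inflammation and defines the regulatory B cells called B10 cells, whereas TGF-β1, encoded by *Tgfb1*, is secreted in a latent form and restrains T cells once released. IL-16, encoded by *Il16*, is cleaved from a large precursor and attracts CD4+ cells. The other members encode the chains of the IL-12 family, in which each cytokine pairs an alpha chain with a beta chain. IL-12 pairs p35 (*Il12a*) with p40 (*Il12b*), IL-23 pairs p19 (*Il23a*) with p40, IL-27 pairs p28 (*Il27*) with EBI3 (*Ebi3*), and IL-35 pairs p35 with EBI3. TLR9 senses unmethylated CpG DNA in endosomes, and in B cells it signals through MyD88 to NF-κB, a family of transcription factors that acts on many cytokine genes.

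The proximal promoters of the 3 members with the largest increases are shown because NF-κB, AP-1 and C/EBP factors are known to act on cytokine promoters. Each sequence is the 250 bases upstream of the RefSeq start of the gene (GRCm38.p6), 5′ to 3′ on the strand of the gene, at chr11:44399813-44400062 for *Il12b*, chr5:30012864-30013113 for *Il6* and chr17:55952373-55952622 for *Ebi3*, all on the plus strand. Capitals mark every match, on either strand, to an NF-κB motif (GGGNNNNNCC), an AP-1 motif (TGANTCA), a C/EBP motif (TTNNGCAA) or an interferon-stimulated response element (GAAANNGAAA).
Il12b: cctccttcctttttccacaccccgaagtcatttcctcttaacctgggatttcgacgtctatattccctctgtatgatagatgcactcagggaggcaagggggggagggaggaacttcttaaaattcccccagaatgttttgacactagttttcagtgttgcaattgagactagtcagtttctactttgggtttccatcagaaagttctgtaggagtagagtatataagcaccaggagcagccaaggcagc
Il6: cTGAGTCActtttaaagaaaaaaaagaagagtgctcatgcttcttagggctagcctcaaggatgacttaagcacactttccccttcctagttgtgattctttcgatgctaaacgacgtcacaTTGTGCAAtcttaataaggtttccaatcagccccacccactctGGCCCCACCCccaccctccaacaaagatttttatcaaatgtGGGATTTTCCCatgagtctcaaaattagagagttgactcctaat
Ebi3: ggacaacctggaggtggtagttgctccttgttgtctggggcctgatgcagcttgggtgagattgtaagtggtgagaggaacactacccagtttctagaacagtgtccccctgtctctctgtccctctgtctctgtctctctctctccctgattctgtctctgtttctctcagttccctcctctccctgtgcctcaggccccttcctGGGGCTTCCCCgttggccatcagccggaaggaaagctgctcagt
In *Il6*, the NF-κB match GGGATTTTCC began 44 bases upstream of the start and overlapped a match on the other strand, GGCCCCACCC began 85 bases upstream, the C/EBP match TTGTGCAA began 128 bases upstream, and the AP-1 match TGAGTCA began 249 bases upstream. In *Ebi3*, GGGGCTTCCC began 44 bases upstream and also overlapped a match on the other strand. The *Il12b* window held no match to these motifs, which says only that these letters are not in it. RefSeq promoters were matched for 7 of the 10 members. Of those not shown, *Tgfb1* and *Il16*, which fell, and *Il12a*, which rose, also held NF-κB matches. Windows of *Il16* held an AP-1 and a C/EBP match as well. The *Il1b* window held no match to any of these motifs, although *Il1b* rose. Matches to the NF-κB motif thus occurred both in members that rose and in members that fell. Among 32851 promoter windows of the same length, 45.8% held the NF-κB motif, 6.75% the AP-1 motif, 9.56% the C/EBP motif and 2.98% the interferon element, so a match to the NF-κB motif alone is common. A match describes the letters in the window and was not measured as binding.

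Values are given as log2 CPM (read counts scaled to 1 M reads per sample) as the authors deposited them. They carry a shift per gene by replicate number, seen mainly in genes with almost no reads. Samples with the same number in both groups held identical values away from the level of no reads in 2709 to 2958 genes. Of these genes, 2681 to 2909 lay under the level of 1 read. Other pairs of samples held identical values in 490 to 605 genes. The most common value, -5.15 log2 CPM, was taken as the level of genes without reads, and shifted genes lie around it. It corresponds to a library of 17.8 M reads on genes, and on this scale 10 reads lie at -0.76 and 3 reads at -2.34. Read numbers below are derived from this scale, are approximate and cover counting error only. Groups were compared with limma over the 11233 genes above the level of 10 reads in at least 3 samples, with Benjamini-Hochberg adjustment over all of them (FDR). An exact permutation test of 3 samples against 3 cannot give a p value below 0.1, and the p values below therefore come from limma alone. The B cell markers *Ms4a1*, *Cd79a*, *Cd79b*, *Pax5*, *Blk* and *Cd22* were all expressed, each at 5.92 log2 CPM or more in every sample, and of these *Ms4a1* rose with CpG (log2FC 0.77) and the other 5 fell.

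Of the 10 members, 8 passed the filter and all 8 changed with CpG at an FDR under 0.05. Transcripts of *Il6*, *Il10*, *Il12a*, *Il12b*, *Ebi3* and *Il1b* rose and those of *Il16* and *Tgfb1* fell. Of the 11233 genes, 37.6% rose and 36.7% fell at this threshold, so passing it is common in this comparison. With a log2FC beyond 1 in size as well, 5 members rose (all but *Il12a*) and 2 fell, against 15.8% and 15.3% of all tested genes. All CpG-stimulated samples lay above all unstimulated ones in 6 of the 8 members and below them in the other 2, as they did in 39.1% and 38.6% of the genes tested. The median log2FC was 2.62 over these 8 and 0.0033 over all tested genes. *Il12b* passed the filter only through its CpG-stimulated samples, so its place in these counts and in the median was set by the filter. *Il23a* and *Il27* did not pass the filter, as neither reached 3 reads in any of the 6 samples.

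**Figure D1:**
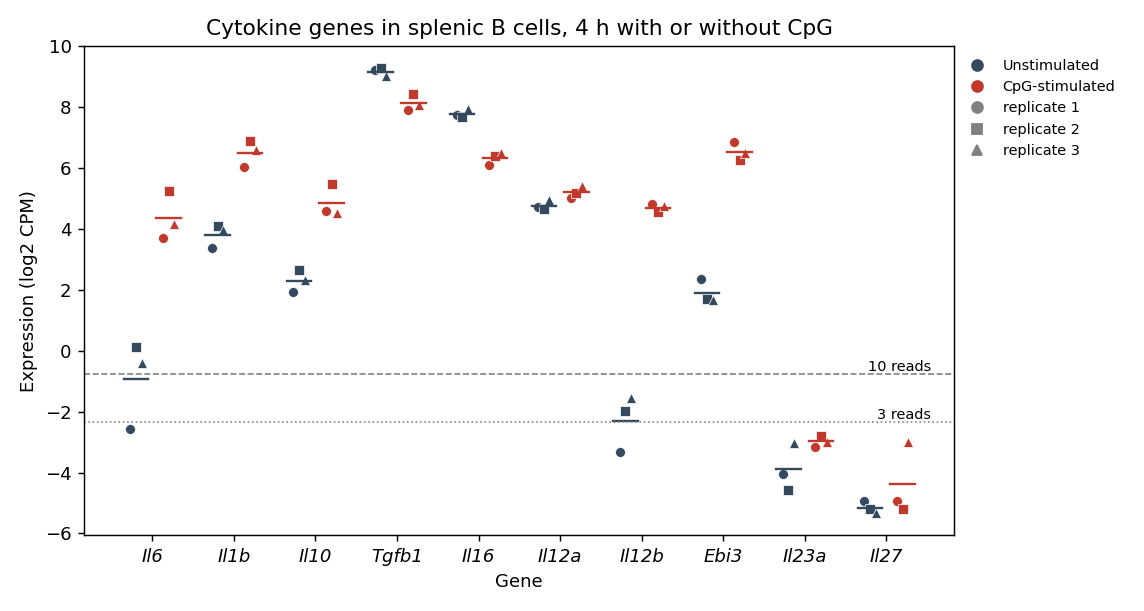
Expression of the 10 cytokine genes in log2 CPM (vertical axis) in each of the 3 unstimulated and 3 CpG-stimulated samples, with lines at the group means and with the levels of 10 reads (dashed, -0.76) and 3 reads (dotted, -2.34). The groups are apart in 8 genes, and the values of Il23a and Il27 all lie under the level of 3 reads.

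*Il12b* (ENSMUSG00000004296.14, chr11:44400063-44414033, plus strand) encodes p40, the chain that IL-12 and IL-23 share. Its level was 4.80, 4.54 and 4.74 log2 CPM in CpG-stimulated replicates 1 to 3 and -3.33, -1.99 and -1.56 in the unstimulated ones. All 3 unstimulated samples were under the level of 10 reads, at 1.27, 3.97 and 5.54 reads, whereas the stimulated samples held 414 to 494 reads. It passed the filter through its stimulated samples alone and so had to differ, and its log2FC of 6.99 (SE 0.39), a fold of 127 (95% interval 69.2 to 232) on the deposited scale, is given as a description. On a log2(CPM + 1) scale it was 4.45. The unstimulated group summed to 10.8 reads. With these derived reads taken as counts, counting error alone gives the ratio of the summed reads, 128, an approximate 95% interval of 70.0 to 252. This interval leaves out the spread between samples. The stimulated samples were close to one another (4.69 ± 0.13, SD, n = 3), and the spread of the unstimulated ones (-2.29 ± 0.92, SD, n = 3) lay in the range of single reads.

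*Ebi3* (ENSMUSG00000003206.7, chr17:55952640-55957022, plus strand) encodes the beta chain of IL-27 and IL-35. It reached 6.83, 6.26 and 6.50 log2 CPM with CpG, and was 2.36, 1.68 and 1.65 without. The unstimulated samples held 55.3 to 90.4 reads of it, so here the fold does not rest on single reads. The log2FC of 4.64 (SE 0.20, FDR = 4.2e-08) is a fold of 24.9 (95% interval 18.3 to 33.8) and passed the test.

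*Il6* (ENSMUSG00000025746.11, chr5:30013114-30019981, plus strand) showed 3.69, 5.23 and 4.15 log2 CPM in CpG-stimulated replicates 1 to 3 and -2.56, 0.12 and -0.40 in unstimulated replicates 1 to 3. Unstimulated replicate 1 lay under the level of 3 reads and replicate 2 was the highest of each group. All stimulated samples were above all unstimulated ones. The log2FC was 5.30 (SE 0.62, FDR = 2.6e-05), and its 95% interval of 3.92 to 6.69 was the widest of the members. Unstimulated replicate 1 moved this value most, and without it the log2FC was 4.50. Differences between samples of the same number were 6.25, 5.12 and 4.55.

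*Il1b* (ENSMUSG00000027398.13, chr2:129364570-129371139, minus strand) was at 6.04, 6.87 and 6.59 log2 CPM in the stimulated samples and at 3.36, 4.10 and 3.96 in the unstimulated ones. It was thus expressed well above the level of 10 reads before stimulation, at 181 to 305 reads. CpG raised it by a log2FC of 2.69 (SE 0.22, FDR = 2.2e-06), a fold of 6.46 (95% interval 4.56 to 9.15). The rise was nearly the same for each replicate number (2.68, 2.77 and 2.63), although replicate 1 was the lowest of both groups.

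*Il10* (ENSMUSG00000016529.5, chr1:131019845-131024974, plus strand), the B10 cytokine, moved by a similar amount. Its values were 4.57, 5.47 and 4.52 log2 CPM with CpG and 1.93, 2.64 and 2.33 without. Its log2FC was 2.56 (SE 0.25, FDR = 7.8e-06), a fold of 5.88 (95% interval 3.97 to 8.71). Replicate 2 was the highest sample of each group for *Il10*, *Il1b* and *Il6*. Summed levels of 3 erythroid markers (*Alas2*, *Beta-s*, *Slc4a1*) were also highest in replicate 2 of both groups, within ranges of 382 to 4902 CPM with CpG and 403 to 3833 CPM without. None of these 3 markers passed the test between the groups, but with the replicate number as a block *Slc4a1* (log2FC -0.47, FDR = 0.0072) and *Beta-s* (0.21, FDR = 0.024) did, in opposite directions. Their part in the cytokine values was not tested.

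*Il12a* (ENSMUSG00000027776.12, chr3:68690644-68698547, plus strand) encodes p35, the alpha chain of IL-12 and IL-35. Its transcript was present before stimulation, at 4.71, 4.65 and 4.93 log2 CPM, and reached 5.02, 5.18 and 5.39 with CpG. The lowest stimulated sample lay just above the highest unstimulated one. The rise of 0.43 (SE 0.11, FDR = 0.0052; fold 1.35, 95% interval 1.14 to 1.61) ranked 3588 among the 11233 genes and did not reach a log2FC of 1. Without the filter on low values its adjusted p was 0.0667, or 0.0293 with the replicate number as a block, and with a looser filter (above the level of no reads in at least 3 samples) it was 0.011.

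*Il16* (ENSMUSG00000001741.12, chr7:83642825-83745726, minus strand) was lower with CpG. Its levels were 6.09, 6.41 and 6.49 log2 CPM in stimulated and 7.73, 7.68 and 7.94 in unstimulated samples. The log2FC was -1.46 (SE 0.11, FDR = 9.7e-07), which is 2.74-fold lower (95% interval 2.32 to 3.24). Several transcripts that start at separate positions belong to this gene, and the values do not tell them apart.

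*Tgfb1* (ENSMUSG00000002603.15, chr7:25687002-25705077, plus strand) also fell. It was at 7.913, 8.431 and 8.054 log2 CPM with CpG and at 9.198, 9.272 and 9.003 without, a log2FC of -1.03 (SE 0.12, FDR = 3.2e-05) and 2.03-fold lower (95% interval 1.68 to 2.46). All 3 stimulated samples were under all 3 unstimulated ones. The log2FC lay close to -1, and its size fell under 1 without CpG-stimulated replicate 1 (-0.92), CpG-stimulated replicate 3 (-0.99) or unstimulated replicate 2 (-0.97). A test against a log2FC of 1 in place of 0 did not call it (FDR = 1).

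**Figure D2:**
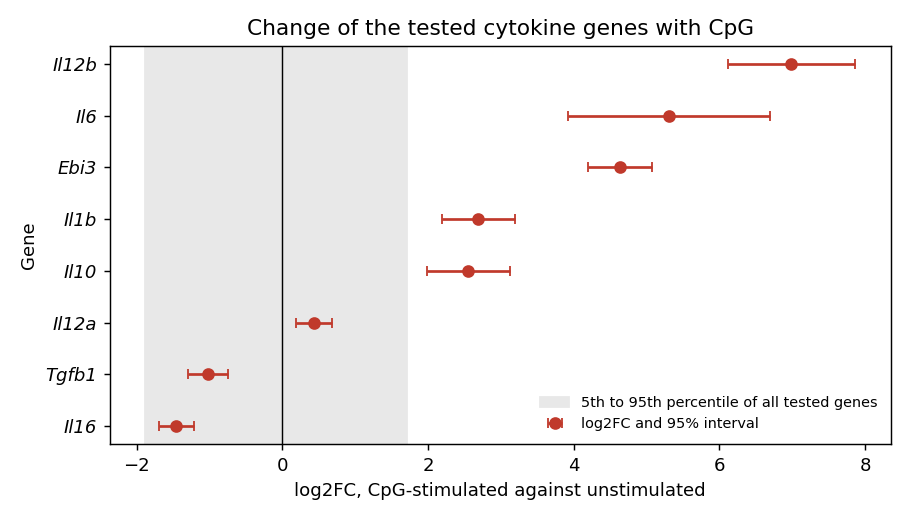
The log2FC of the 8 tested cytokine genes (points) with 95% intervals from limma (bars), CpG-stimulated against unstimulated, 3 samples per group, with the range from the 5th to the 95th percentile of all 11233 tested genes in grey (-1.88 to 1.72). The intervals of Il12b, Il6, Ebi3, Il1b and Il10 lie wholly above this range, whereas those of Il12a, Tgfb1 and Il16 lie within it. Il12b passed the filter only through its stimulated samples, so its place is a description. Unstimulated replicate 1 of Il6 was under 3 reads.

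*Il23a* (ENSMUSG00000025383.2, chr10:128296139-128298752, minus strand) encodes p19, the alpha chain of IL-23. It was at -3.15, -2.79 and -2.99 log2 CPM in stimulated and -4.06, -4.58 and -3.04 in unstimulated samples, and the groups overlapped. *Il27* (ENSMUSG00000044701.5, chr7:126589010-126594941, minus strand) encodes p28, the alpha chain of IL-27. Its values were -4.94, -5.19 and -2.99 with CpG and -4.94, -5.19 and -5.33 without. The first and second values are identical between the groups, and in CpG-stimulated replicate 3 the gene held 1.73 reads. All these values are under the level of 3 reads, so no fold is given for either gene, and a change was not detectable at this depth.

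To set subunits side by side, levels were divided by the length of the exons of each gene (log2 CPM per kb). On this scale p35 was the IL-12 chain in excess in both groups, but by very different amounts. The level per kb of *Il12a* was 104 to 304 times that of *Il12b* in the unstimulated samples and 1.35 to 1.82 times in the CpG-stimulated ones. The log2 difference of *Il12b* minus *Il12a* per kb thus moved from -7.27 ± 0.85 to -0.71 ± 0.24 (SD, n = 3 each). Its unstimulated values rest on 1.27 to 5.54 reads of *Il12b* per sample. *Il12b* passed the filter through its stimulated samples alone, so this shift is given as a description. For the IL-35 pair the order of the chains changed. *Ebi3* was below *Il12a* in each unstimulated sample, with *Il12a* at 3.46 to 6.60 times its level per kb, and above it in each stimulated sample, at 3.12 to 5.17 times. Since *Il12a* itself moved by 0.43, these shifts in the ratios came mostly from the rises of *Il12b* and *Ebi3* given above.

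The beta chains were far above their other partners after CpG. *Il12b* was at 3.72 and *Il23a* at -4.14 log2 CPM per kb (means of the stimulated samples), and *Ebi3* was at 6.33 and *Il27* at -4.40, where the *Il23a* and *Il27* values are those of under 3 reads. *Ebi3* remained above *Il12b* in all 6 samples, by 2.61 ± 0.17 with CpG and by 4.96 ± 1.32 without (log2 difference per kb, SD, n = 3 each). In the samples without CpG, *Il12b* was under the level of 10 reads. Transcript levels of chains do not give the amount of paired and secreted cytokine, which was not measured here.

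**Figure D3:**
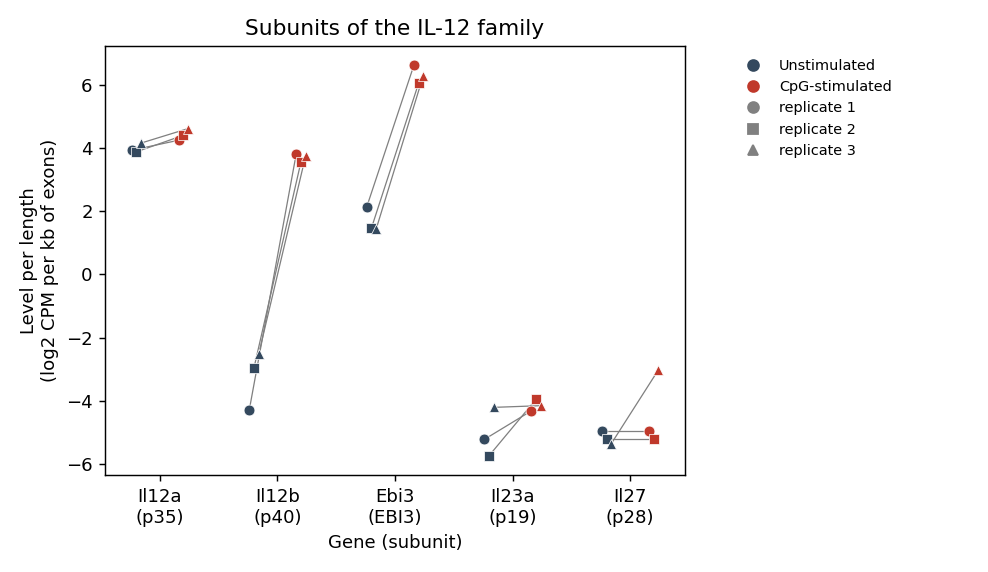
Level per length of the 5 IL-12 family chains (vertical axis, log2 CPM per kb of exons) in unstimulated (left of each gene) and CpG-stimulated samples (right), with lines joining samples of the same replicate number. Il12a lies near 4 in both groups, Il12b and Ebi3 rise in all 3 pairs, and Il23a and Il27 stay at the bottom of the range.

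Ordered by level per kb, the unstimulated cells held *Tgfb1* (6.82), *Il16* (4.81), *Il12a* (4.00), *Il1b* (2.87), *Il10* (1.91), *Ebi3* (1.69), *Il6* (-2.23), *Il12b* (-3.27), *Il23a* (-5.06) and *Il27* (-5.18), as means in log2 CPM per kb. The samples of *Il10* and *Ebi3* overlapped, as did those of each neighboring pair from *Il6* to *Il27*. After CpG the order was *Ebi3* (6.33), *Tgfb1* (5.80), *Il1b* (5.57), *Il10* (4.46), *Il12a* (4.43), *Il12b* (3.72), *Il16* (3.35), *Il6* (3.08), *Il23a* (-4.14) and *Il27* (-4.40). Here *Ebi3* overlapped *Tgfb1*, *Tgfb1* overlapped *Il1b*, *Il10* overlapped *Il12a*, *Il16* overlapped *Il6*, and *Il23a* overlapped *Il27*. The 2 genes with the highest levels per kb before stimulation, *Tgfb1* and *Il16*, were the 2 that fell. The order after CpG depends on the length used. With the length of the transcript with the longest coding sequence in place of all exons, *Tgfb1* (7.01) was above *Ebi3* (6.33) without overlap, *Il6* (4.17) overlapped *Il10*, and *Il12b* (3.73) was under *Il16* (3.93) with overlap.

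Among the receptors of these cytokines, 13 of 16 listed genes passed the filter, of which 2 rose, 7 fell and 4 did not pass the test. Over all tested genes 37.6% rose and 36.7% fell. The median log2FC was -0.61 in this list and 0.0033 over all genes. *Il6ra*, the ligand-binding chain for IL-6, fell (log2FC -1.99, SE 0.16, FDR = 1.4e-06), and so did *Il6st*, which encodes the shared signaling chain gp130 (-1.24, SE 0.088, FDR = 7e-07). *Il10ra*, the ligand-binding chain for IL-10, went from 7.20, 7.31 and 7.30 log2 CPM in unstimulated to 5.38, 5.55 and 5.56 in stimulated samples (log2FC -1.78, SE 0.072, FDR = 3.3e-08). Receptor chains for IL-6 and IL-10 thus fell in the samples in which the transcripts of both cytokines rose. *Tgfbr2*, the ligand-binding receptor for TGF-β, fell by 0.80 on the log2 scale (SE 0.060, FDR = 1e-06). The 2 that rose were *Il1rap*, the accessory chain of the IL-1 receptor (1.62, SE 0.13, FDR = 1.3e-06), and *Il12rb2*, a signaling chain of the IL-12 receptor (1.23, SE 0.21, FDR = 0.00042). *Cd4*, a receptor for IL-16, was under 3 reads in all 6 samples. *Cd9*, listed as another receptor for IL-16, was at 5.415 to 6.144 log2 CPM over these samples and did not pass the test (log2FC 0.081, FDR = 0.69).

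Several members need processing or release before they act. In this list 11 of 15 genes passed the filter, of which 4 rose and 5 fell (median log2FC -0.18), against 37.6% and 36.7% of all tested genes. *Il1rn*, which encodes the antagonist of the IL-1 receptor, rose beside *Il1b*, from at most 0.20 log2 CPM in the unstimulated to at least 1.92 in the stimulated samples (log2FC 2.60, SE 0.39, FDR = 0.00016). For *Il1rn*, unstimulated replicate 1 was under the level of 10 reads, at 7.89 reads. *Casp1*, which encodes the protease that cleaves the IL-1β precursor, moved by -0.24 (SE 0.089, FDR = 0.034). *Nlrp3*, an inflammasome sensor, did not reach the level of 10 reads in any sample. *Aim2*, another such sensor, was at 5.522 to 6.065 log2 CPM over all samples and moved by -0.36 (SE 0.094, FDR = 0.0059). *Pycard*, *Casp4* and *Gsdmd* of the same list were above the level of 10 reads in every sample.

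Genes of TGF-β latency moved in both directions while *Tgfb1* fell. *Lrrc32*, which encodes GARP, a surface anchor for latent TGF-β, rose from 1.44, 1.34 and 1.27 to 3.60, 3.92 and 3.63 log2 CPM (log2FC 2.36, SE 0.14, FDR = 2.6e-07). *Furin*, which encodes the protease that cleaves the TGF-β precursor, rose by 0.67 (SE 0.069, FDR = 1e-05). *Itgav*, the alpha chain of integrins that release TGF-β, fell (log2FC -1.21, SE 0.078, FDR = 3.7e-07), as did *Thbs1*, which encodes the TGF-β activator thrombospondin-1 (log2FC -2.41, SE 0.47, FDR = 0.00098). For *Thbs1*, CpG-stimulated replicate 1 was under the level of 10 reads, at 4.19 reads. *Itgb8*, the beta chain of one such integrin, was under 3 reads in all samples.

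Transcription factors and mRNA regulators known to act on these cytokines were all expressed, and 13 of 26 rose, 9 fell and 4 did not pass the test (median log2FC 0.18). Over all tested genes 37.6% rose and 36.7% fell, so such counts are common in this comparison. *Batf*, an AP-1 family factor, had the largest change of the list, from 3.49, 3.34 and 3.70 to 8.51, 8.55 and 8.57 log2 CPM (log2FC 5.03, SE 0.090, FDR = 1.7e-09). *Nfkbiz* encodes IκBζ, a nuclear cofactor of NF-κB that is needed for *Il6* and *Il12b* transcription in macrophages, and it rose by 3.52 (SE 0.085, FDR = 5.4e-09). The NF-κB subunit gene *Nfkb1* rose by 1.71 (SE 0.11, FDR = 3e-07), whereas the subunit genes *Rel* (log2FC -1.21, FDR = 2.7e-07) and *Rela* (-0.18, FDR = 0.027), named after their values were seen, fell. *Maf*, a factor known to drive *Il10* in T cells and macrophages, fell (log2FC -1.79, SE 0.33, FDR = 0.00065) in the samples in which *Il10* rose.

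**Figure D4:**
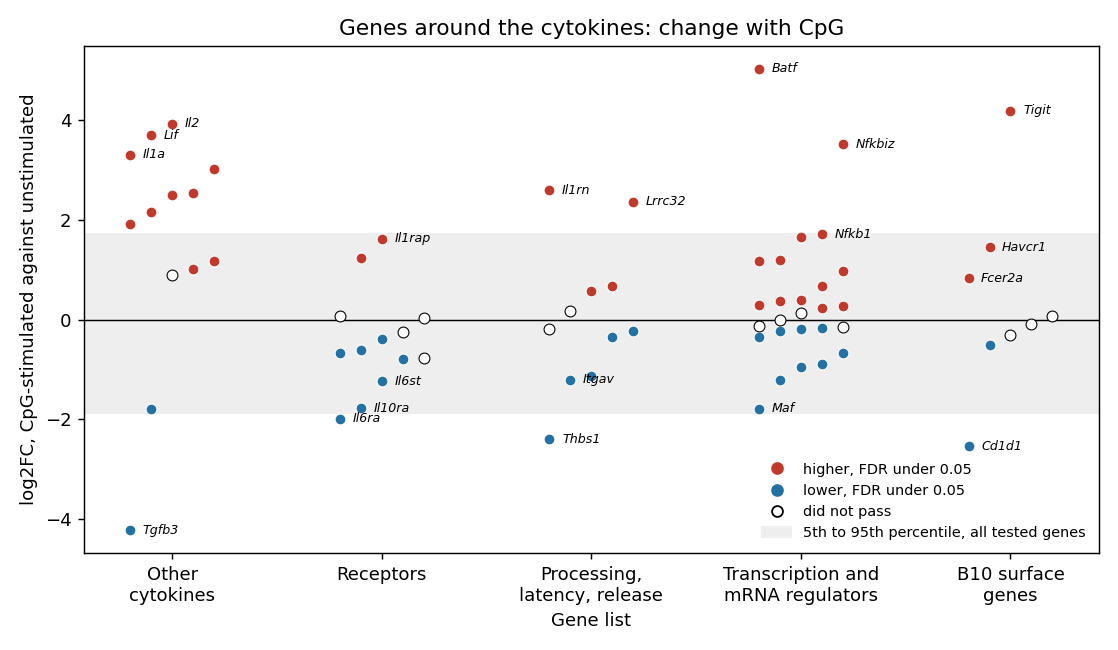
The log2FC (vertical axis, CpG-stimulated against unstimulated) of each tested gene in 5 lists of genes around the cytokines, filled where the FDR was under 0.05 and open where it was not, with the 4 largest changes of each list named and the 5th to 95th percentile of all tested genes in grey (-1.88 to 1.72). In the list of other cytokines 10 of 13 genes rose, and among the receptors 7 of 13 fell, against 37.6% and 36.7% of all tested genes. Of the cytokines that rose, Il2, Lif and Tgfb2 had under 10 reads in all unstimulated samples, as had Tigit among the B10 surface genes.

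The mRNAs of many cytokines are short-lived and carry AU-rich elements, repeats of the pentamer ATTTA in the 3′ untranslated region (UTR), to which proteins that control decay bind. The following windows of 30 bases hold pentamers of members whose transcripts rose (*Il12b*, *Il6*, *Il1b*, *Il12a*, *Ebi3*) or fell (*Tgfb1*), with ATTTA in capitals, 5′ to 3′ on the strand of the gene. They were read from GENCODE M21 transcripts (GRCm38) as DNA letters, and positions are counted from 1 at the first base after the stop codon.
Il12b, 237 to 266: ATTTAagtaATTTAtgtATTTAttaATTTA
Il6, 129 to 158: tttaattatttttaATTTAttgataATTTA
Il1b, 192 to 221: caaccacttacctATTTATTTAtgtATTTA
Il12a, 384 to 413: gcctATTTAtATTTATTTAttttctATTTA
Ebi3, 182 to 211: ggtgcggggctttgtgaactttgtgATTTA
Tgfb1, 48 to 77: ccccgcccgcagcgcccggggctgtATTTA
Over the whole 3′ UTR, *Il6*, *Il10*, *Il12a*, *Il12b* and *Il23a* each held 6 pentamers, *Il27* held 5 and *Il1b* held 4. *Ebi3* and *Tgfb1* held 1 each and *Il16* held 0. The median among 10164 tested genes with an annotated 3′ UTR was 1 pentamer in a 3′ UTR of 964 bases.

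Per kb of 3′ UTR, 8 of the 10 members were above the 90th percentile of the tested genes (4.17 pentamers per kb). The density was 14.1 for *Il6*, 12.1 for *Il12a*, 8.71 for *Il1b*, 8.50 for *Il10* and 7.75 for *Il12b*, and a density at least as high was found in 0.403%, 0.6%, 1.43%, 1.56% and 2.03% of the tested genes. *Ebi3* was at 4.08 and *Tgfb1* at 7.41, each from a single pentamer in a short 3′ UTR. *Il12a*, the third highest in density, rose by 0.43 only, and *Ebi3*, with a single pentamer, rose by 4.64, so density and log2FC did not follow one order among the members. The nonamer TTATTTATT, a longer form of the element, was present in *Il12a*, *Il23a* and *Il27* and in 7.27% of the tested genes.

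**Figure D5:**
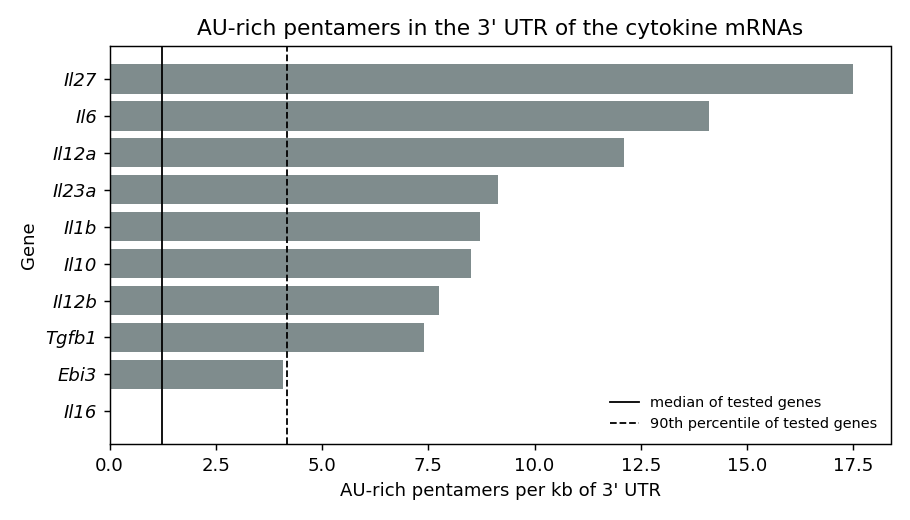
Pentamers (ATTTA) per kb of the annotated 3′ UTR for each of the 10 cytokine genes (bars), with the median (solid line, 1.23) and the 90th percentile (dashed line, 4.17) of 10164 tested genes. In 8 genes the density is above the 90th percentile, Ebi3 lies just under it, and Il16 holds none.

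A pair of regulators of cytokine mRNAs is given here, chosen after their values were seen. *Zc3h12a* encodes regnase-1, an RNase that cleaves *Il6* and *Il12b* mRNA, and it rose by 1.17 (SE 0.070, FDR = 2.4e-07). *Zfp36* encodes tristetraprolin, which binds AU-rich elements and promotes decay, and it fell by 0.89 on the log2 scale (SE 0.12, FDR = 7.2e-05). RNA stability was not measured.

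Other cell types of the spleen also make several of these cytokines, so their markers are given beside the members. Summed levels of 11 markers of macrophages, monocytes and granulocytes were 27.1 to 34.5 CPM in stimulated and 22.9 to 28.1 CPM in unstimulated samples. Among the 7 of these that passed the filter, *Adgre1* and *Cd68* rose and *Cd14* and *Csf1r* were lower with CpG. *Cd14* and *Csf1r* passed the filter only through their unstimulated samples, so their direction was set by the filter. *Fcgr1* was under 3 reads in all 6 samples. Of 7 dendritic cell markers, 3 passed the filter, and their sum over all 7 was 90.8 to 106 CPM with CpG and 32.4 to 39.4 CPM without, with rises of *Zbtb46* (log2FC 1.62) and *Flt3* (1.33) and a fall of *Ccr9* (-0.94). *Cd209a* was under 3 reads in all 6 samples, and *Itgax*, *Xcr1* and *Siglech* were under the filter. *Zbtb46* (5.98 to 6.10 log2 CPM with CpG, 4.24 to 4.57 without) and *Flt3* (4.71 to 5.20 and 3.48 to 3.71) carried the dendritic cell sum. This sum moved in the direction of *Il12b*, *Il6*, *Ebi3*, *Il1b* and *Il10*, and its part in their rise was not tested. For B cells of its MRL/lpr mice, the study depleted cells bearing CD43, CD4, CD8, CD11b, CD11c or Gr-1 with beads. This step is directed at dendritic and other myeloid cells among others, but the B cell purity that the study gives for it was not complete. The labels of the BALB/c samples say only that beads were used. For the 7 T cell markers the sums were 125 to 142 CPM with CpG and 71.5 to 92.3 CPM without, of which *Lck* alone passed the filter. *Lck* carried these sums, at 6.95 to 7.14 log2 CPM with CpG and 6.14 to 6.51 without (log2FC 0.67). *Cd3e*, *Cd8a* and *Cd8b1* were under 3 reads in all 6 samples, and *Cd3d*, *Cd3g* and *Cd28* were under the filter. The 4 NK cell markers summed to 0.758 to 1.36 CPM with CpG and 0.119 to 0.161 CPM without, and the groups did not overlap. *Klrb1c* carried this, at 9.40, 20.3 and 20.4 reads against 0.42 reads or fewer, whereas the other 3 were under 3 reads in all samples, and the part of this marker in the cytokine values was not tested. Markers of mast cells and basophils summed to at most 1.40 CPM in any sample. All 4 plasma cell markers fell, as 36.7% of all tested genes did, with sums of 488 to 634 CPM with CpG and 1014 to 1394 CPM without.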

How the data were processed

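The 6 samples (3 CpG-stimulated, 3 unstimulated) were grouped by their labels. The authors prepared stranded mRNA libraries, aligned reads to mm10 with STAR (2.6.1a), counted them per gene with featureCounts (Subread 2.0.1) and applied quantile normalization and voom. Deposited values are log2 CPM, not counts, so no count model was used, and the number of columns left unused was 0. The annotation and whether counting used strand are not given in the sources used here. Exons of *Ebi3*, *Il1b*, *Il16* and *Il27* overlap those of genes on the other strand in GENCODE M21, and reads of these cannot be told apart without strand. Quantile normalization removes differences in depth and in total RNA per cell, and values summed to between 992384 and 1012400 CPM per sample. Depth was inferred from the level of genes without reads, taken as 0.5 reads.

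Differences were tested in R 4.3.3 with limma 3.58.1 (two-sided, lmFit followed by eBayes with a trend) over 11233 genes, with FDR over all of them, and the procedure was tested on simulated data. Intervals are at 95%. The cytokines and gene lists were chosen with earlier results of these data known. All 10 members are named, and from each list at most 4 genes with the largest log2FC past the FDR, plus the receptor, processing enzyme or antagonist of a member. A few more genes of the lists were named after their values were seen. A few genes of the lists are not reported here. Older symbols were matched for *Adgre1* (Emr1) and *Jchain* (Igj). Deviations from the group means correlated at 0.435, 0.224 and 0.300 between samples with the same replicate number and at -0.281 to 0.0279 otherwise. The shift per gene by replicate number in the deposited values can give such correlations by itself, so they do not show that the numbers are pairs. In an alternative fit the labeled numbers were treated as pairs. The labels do not say that a number is 1 mouse, and p values measure only the spread between these samples. Alternatives covered the filter, the block, scale, trend, centring, a test against a log2FC of 1, the female samples only and each sample left out. Promoters came from RefSeq (GRCm38.p6) and transcript lengths and 3′ UTRs from GENCODE M21.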

Additional observations from a re-analysis of the deposited data

How the results depend on the processing

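Across 16 alternative settings, 123 of 126 values of the members kept their direction and their side of the FDR threshold. *Il12a* did not pass without the filter on low values (log2FC 0.43, FDR = 0.0667, the cause was not tested), nor in a test against a log2FC of 1 (FDR = 1). *Tgfb1* did not pass that test either (log2FC -1.03, FDR = 1), which left 1 member falling. The same test, by its construction, called 914 rising and 968 falling genes in all, in place of 4227 and 4123 at the FDR alone or 1778 and 1723 with a log2FC beyond 1. Requiring 10 reads in every sample removed *Il6* and *Il12b* and left 3 members rising beyond 1. Leaving out each sample in turn gave log2FC values of 6.47 to 7.35 for *Il12b*, 4.50 to 5.84 for *Il6*, 4.49 to 4.87 for *Ebi3*, 2.47 to 2.92 for *Il1b*, 2.25 to 2.72 for *Il10*, 0.34 to 0.52 for *Il12a*, -1.53 to -1.34 for *Il16* and -1.17 to -0.92 for *Tgfb1*, and 1 to 2 members falling beyond -1. On a log2(CPM + 1) scale, which compresses low values, the log2FC was 4.45 for *Il12b* and 3.73 for *Il6*. With the replicate block, 4390 genes rose and 4287 fell at the FDR alone, and the block changed no call of a member. Lengths of a single transcript in place of all exons, an alternative chosen after seeing the data, moved 10 of the 20 levels per kb by more than their SD. Depth limits *Il23a*, *Il27* and the unstimulated levels of *Il12b* and *Il6*.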

Other observations

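Beyond the members, 28 other cytokine genes were looked at in the same samples. Of these, 13 passed the filter on low values, 10 rose, 2 fell and 1 (*Il18*) did not pass the test. Over all tested genes 37.6% rose and 36.7% fell. *Il2*, *Lif* and *Tgfb2* passed the filter only through their CpG-stimulated samples, so their place among the rises was set by the filter. *Lif*, a cytokine that signals through gp130 like IL-6, was at 1.51, 1.86 and 1.24 log2 CPM with CpG and at -1.44, -3.46 and -1.59 without, where it held 1.11 to 6.05 reads, so no fold is given. *Il1a*, which encodes IL-1α, rose by 3.31 (SE 0.24, FDR = 8e-07). *Il2* was near the level of 10 reads with CpG (-0.23, -0.30 and -0.03) and under 3 reads in all unstimulated samples, so no fold is given. *Tgfb3*, which encodes another TGF-β, fell from 4.10, 4.23 and 3.13 to -0.78, 0.55 and -1.01 log2 CPM (log2FC -4.23, SE 0.41, FDR = 7e-06). CpG-stimulated replicates 1 and 3 held 9.85 and 8.32 reads of it, under the level of 10 reads, so the size of this fall is approximate. In 11 of the 28 genes, *Il4*, *Il5* and *Il13* among them, no sample exceeded 3 reads.

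Of 8 surface genes used to mark regulatory B cells, 3 rose, 2 fell and 3 did not pass the test. Over all tested genes 37.6% rose and 36.7% fell, so neither direction was more common in this list than in the rest. *Tigit*, an inhibitory receptor, was at -1.66, -2.83 and -2.44 log2 CPM without CpG, or 2.01 to 5.12 reads, and at 1.57, 2.68 and 1.42 with CpG. It also passed the filter only through its stimulated samples, so no fold is given. *Havcr1*, which encodes TIM-1, rose by 1.46 (SE 0.19, FDR = 5.1e-05) and *Fcer2a*, which encodes CD23, by 0.83 (SE 0.073, FDR = 3.2e-06). *Cd1d1*, which encodes the antigen-presenting molecule CD1d, fell (log2FC -2.55, SE 0.29, FDR = 2.1e-05), and *Cd5* was at -0.32 (SE 0.29, FDR = 0.33).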
